A study of Mus musculus with 8 samples.

Results

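The 10 genes described here are transcripts by which cells restrain, or directly record, signalling through the ERK1/2 kinases. They comprise 3 dual-specificity phosphatase genes (Dusp4, Dusp5 and Dusp6), 3 Sprouty genes (Spry1, Spry2 and Spry4), the related genes Spred1 and Spred2, and the transcription factor genes Etv4 and Etv5. They were selected by symbol through their Entrez Gene numbers, and all 10 were found among the 24454 genes listed in each library. RNA sequencing covered 8 libraries of 4T1, a mouse mammary carcinoma line, each infected with a lentiviral short hairpin RNA and selected with puromycin. The hairpin targeted ERK5 in 3 libraries (shERK5) and MEK5 in 2 libraries (shMEK5), and was non-targeting in 3 libraries (shCTRL). Map2k5 encodes MEK5, which activates ERK5 by phosphorylation, and Mapk7 encodes ERK5. A single hairpin stood for each target, so unintended effects of a hairpin cannot be told apart from those of depleting its target. Nothing in the labels ties replicates to cultures grown apart, and the p-values therefore reflect scatter among libraries that may be partly or wholly technical.

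The ERK1/2 kinases are switched on by growth factor receptors through Ras, Raf and MEK1/2. Active ERK1/2 raises the transcription of genes whose products then dampen the same route: DUSP phosphatases remove phosphate from MAP kinases, and Sprouty and Spred proteins act upstream, at receptors, Ras and Raf. ETV4 and ETV5 are ETS transcription factors of the PEA3 group, and their transcripts are widely read as a record of ERK1/2 output. ERK5 belongs to a parallel MAP kinase arm with its own activator, and the comparisons below ask how the transcripts of this feedback layer stood when that arm was depleted.

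Depth ranged from 41397315 to 53714288 reads assigned to genes per library, and levels are in CPM, a gene's share of these reads scaled to 1000000. Mapk7 was at 24.4% of its shCTRL mean in shERK5, and Map2k5 at 39.2% of its shCTRL mean in shMEK5. Mapk7 also fell in shMEK5, to 73% of its shCTRL mean (log2 fold change -0.44, SE 0.08, limma adjusted p = 9.23e-04). All 6 epithelial markers examined were present, but they did not move together. In shERK5 4 rose and 2 fell: Cldn4 was at 414% of its shCTRL mean, Cdh1 at 299.9%, Epcam at 216% and Krt19 at 206%, while Krt8 and Krt18 were each at 69.7%. In shMEK5 Cdh1 (149%), Krt19 (132%) and Cldn4 (113%) rose, Krt8 (69.1%) and Krt18 (65.8%) fell, and Epcam was not called (108%). The list's summed level, most of it Krt8 and Krt18, was 1641 to 1686 CPM in shERK5, 1275 to 1340 CPM in shMEK5 and 1700 to 1881 CPM in shCTRL, and the part of these differences in the results below was not tested. Of 7 fibroblast markers, Dcn, Lum and Thy1 had no reads in any library, and the list summed to at most 0.980 CPM once Pdgfra was set aside. Pdgfra itself was present in every group, at 25.8 ± 2.89 CPM in shERK5, 34.6 ± 1.33 CPM in shMEK5 and 36.8 ± 8.28 CPM in shCTRL (SD, n = 3, 2 and 3). The 6 leukocyte markers summed to at most 0.126 CPM and the 5 endothelial markers to at most 0.387 CPM. In bulk libraries a lower level in every cell and fewer cells with the transcript cannot be told apart.

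All 10 genes passed the filter on low values, which asked for 1 CPM or more in 2 or more of the 8 libraries. In shCTRL they spanned a wide range of levels. Per kilobase of annotated exon, which allows genes of different length to be set side by side, Dusp6 stood highest, at 67.4 ± 0.224 CPM per kb, ahead of Dusp4 at 61.2 ± 0.825, Spred1 at 45.4 ± 2.97, Spry2 at 37.6 ± 2.04 and Etv4 at 32.6 ± 1.19 CPM per kb (SD, n = 3 each). Etv5 followed at 8.56 ± 1.495 CPM per kb, and Dusp5, Spry1, Spred2 and Spry4 lay between 1.99 and 3.56 CPM per kb. The ranges of the 3 shCTRL libraries did not overlap between neighbours in this order, except that Spry4 overlapped Spred2. These ranges do not cover error in the length used, which joins all annotated exons of a gene. The transcript expressed may be shorter, and the annotation used for counting is not given, so the order is approximate. In CPM, Spred1 stood above Dusp6 in shCTRL, at 308 against 211. The order per kilobase changed in shERK5. There Dusp4 (28.7 to 32.6 CPM per kb), Spry2 (28.5 to 31.3) and Spred1 (27.9 to 32.2) overlapped each other, and Spry1 became the lowest of the 10, at 0.748 ± 0.148 CPM per kb (SD, n = 3), below every library of Spry4 in that group.

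**Figure D1:**
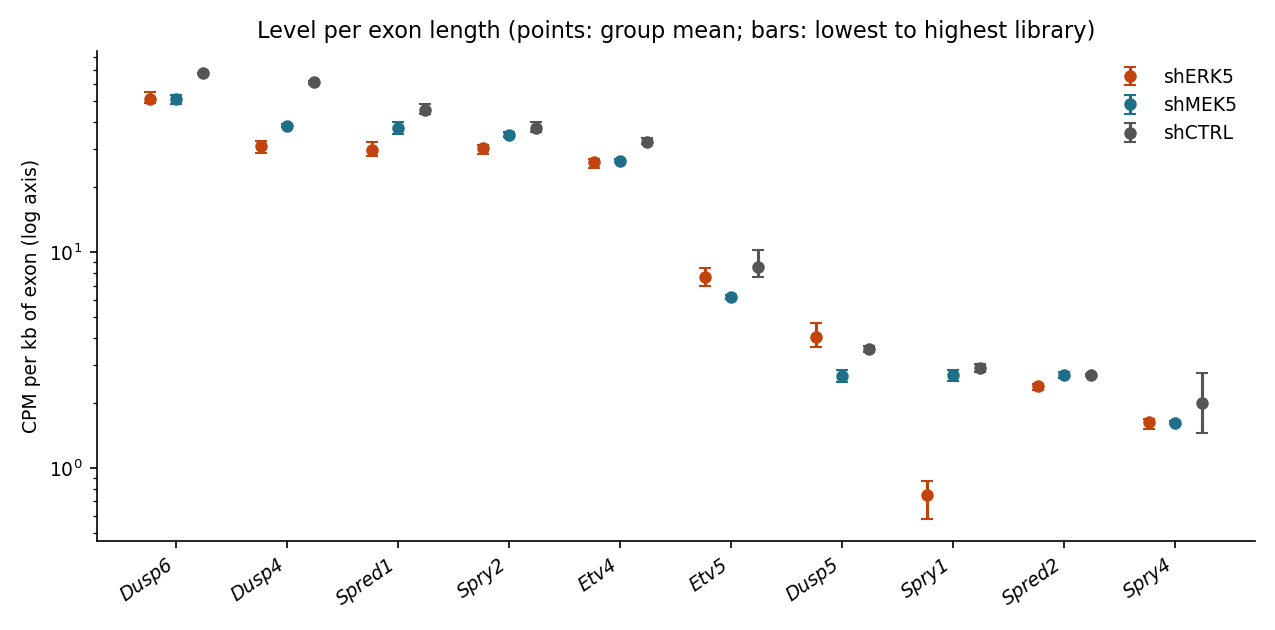
Level of each gene in CPM per kilobase of annotated exon (log axis) in shERK5, shMEK5 and shCTRL; points are group means and bars run from the lowest to the highest library. Spry1 drops to 0.748 CPM per kb in shERK5, against 2.69 in shMEK5 and 2.91 in shCTRL, whereas Dusp6 keeps the highest level in each group.

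The comparison of shERK5 with shCTRL asked which of these transcripts differed where ERK5 was targeted. Spry1, Dusp4, Spred1, Dusp6, Etv4 and Spry2 fell, and no gene of the set was called up. Spry1, a Sprouty inhibitor of receptor tyrosine kinase signalling, was at 25.7% of its shCTRL mean and Dusp4, a nuclear MAP kinase phosphatase, at 50.7%, while the other 4 lay between 65.3% and 80.5%. By limma, 6 of the 10 were called at an adjusted p under 0.05, all downwards; over all 11623 tested genes 31.3% were called down and 32% up. The median log2 fold change, on the log2(CPM + 1) scale, was -0.31 over the 10 genes and 0.002 over all tested genes. The groups did not overlap for 7 of the 10, but such separation was common, at 67.9% of all tested genes. The same 6 were called under each of the 17 alternatives.

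The comparison of shMEK5 with shCTRL asked the same of MEK5. Dusp4, Etv5, Dusp6, Dusp5, Etv4 and Spred1 fell, and again none of the 10 was called up. Dusp4 was at 63% of its shCTRL mean, and the other 5 lay between 72.5% and 83.2%. Here too 6 of the 10 were called, all downwards, against 25.6% of all tested genes called down and 23.1% called up. The balance over all genes depended on scaling, with 2684 up and 2979 down in the main fit but 2923 up and 2763 down with TMM factors. The same 6 members were called down with TMM factors. The median log2 fold change was -0.28 over the 10 genes and -0.02 over all tested genes, and the groups did not overlap for 7 of the 10, against 68.7% of tested genes. Dusp4, Dusp6 and Etv4 were called under every alternative, and the count of 6 was 5 without shCTRL replicate 1, 4 without shMEK5 replicate 1 and 4 without shMEK5 replicate 2. Both comparisons use the same shCTRL libraries. Called down in both were Dusp4, Dusp6, Spred1 and Etv4, while Spry4 and Spred2 were called in neither. The share of all tested genes called down in both was not computed, so this overlap has no background to be read against.

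**Figure D2:**
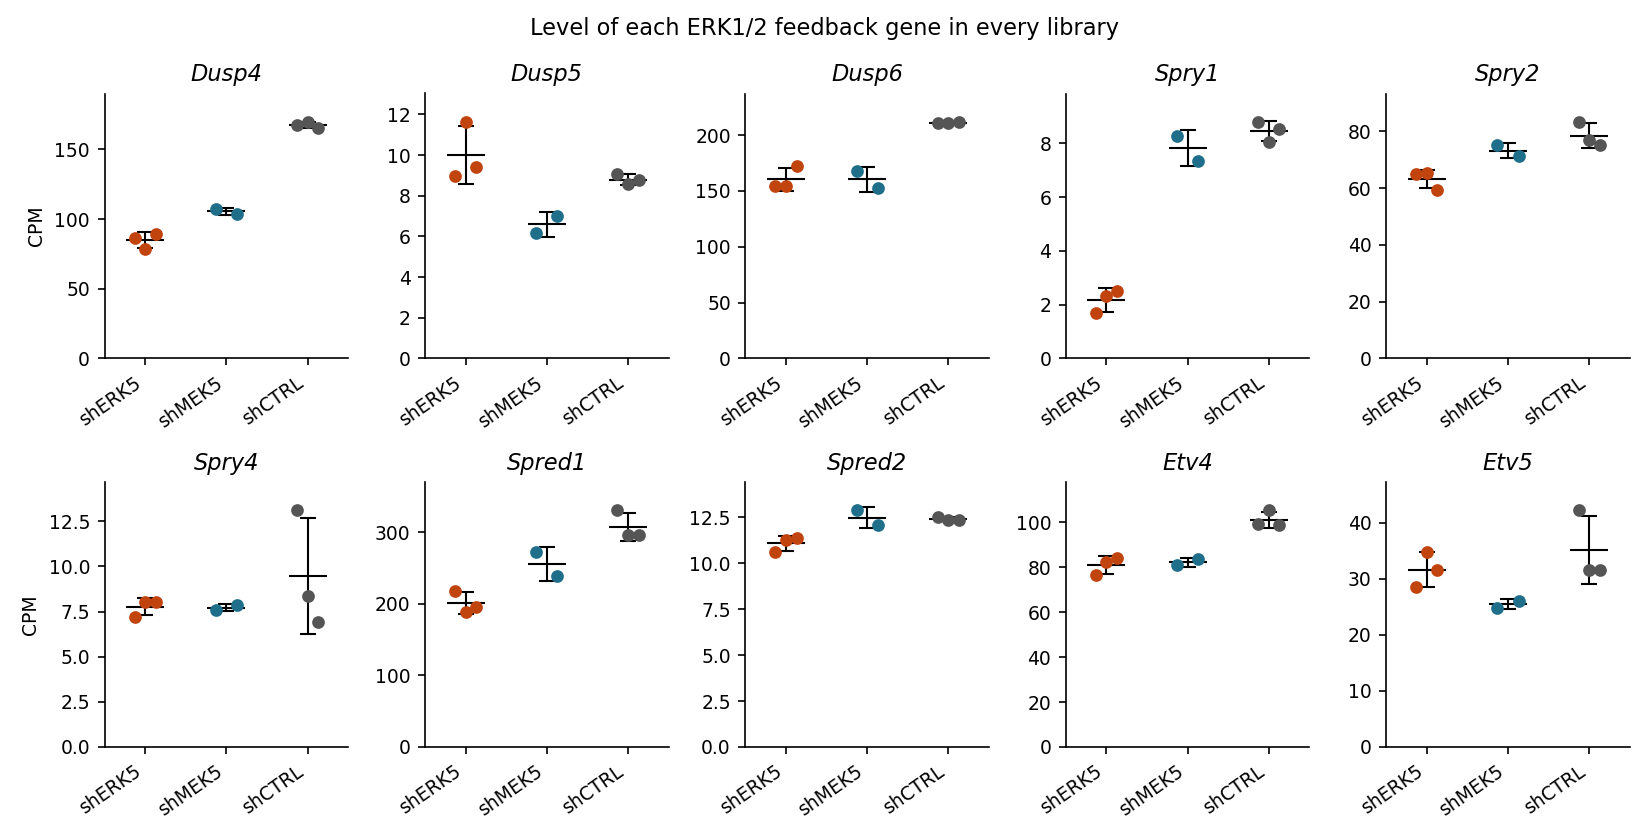
CPM of each gene in every library, with shERK5, shMEK5 and shCTRL from left to right; points are libraries, the horizontal line is the group mean and the bars are the SD. Dusp4 separates into 3 levels, Spry1 is low in shERK5 alone (1.69 to 2.52 CPM), and the first shCTRL library stands high for Spry4 (13.1 CPM) and Etv5 (42.2 CPM).

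Among the phosphatases, Dusp4, whose product acts in the nucleus on ERK1/2 and also on the stress kinase JNK, differed between all 3 groups. It was at 86.5, 78.8 and 89.4 CPM in the shERK5 libraries, at 107 and 104 CPM in the shMEK5 libraries, and at 168, 170 and 165 CPM in the shCTRL libraries. The 3 groups were fully separated, with shERK5 lowest and shMEK5 between it and shCTRL. Dusp4 fell by 0.97 on the log2 scale in shERK5 (SE 0.05, limma adjusted p = 2.46e-07) and by 0.66 in shMEK5 (SE 0.06, adjusted p = 1.30e-05). The difference between the knockdowns was itself called, with Dusp4 lower in shERK5 (-0.31, SE 0.06, adjusted p = 0.00194).

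Dusp6 encodes the cytoplasmic phosphatase MKP-3, which is selective for ERK1/2. It was at 154, 154 and 172 CPM in the shERK5 libraries, at 168 and 153 CPM in the shMEK5 libraries, and at 211, 210 and 212 CPM in the shCTRL libraries. Each knockdown library lay below all shCTRL libraries, and the knockdowns overlapped one another. The fall was 0.40 on the log2 scale in shERK5 (SE 0.06, adjusted p = 0.00015) and 0.40 in shMEK5 (SE 0.06, adjusted p = 5.41e-04). Between the knockdowns the log2 difference was -0.001 (95% interval -0.14 to 0.14, adjusted p = 0.992), a sign that depended on which library was left out.

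Dusp5, the nuclear ERK1/2 phosphatase that can also hold ERK in the nucleus, moved differently. It was at 8.96, 11.6 and 9.40 CPM in the shERK5 libraries, at 6.16 and 7.03 CPM in the shMEK5 libraries, and at 9.07, 8.56 and 8.76 CPM in the shCTRL libraries. The shMEK5 libraries lay below all others, while shERK5 overlapped shCTRL. Dusp5 fell in shMEK5 by 0.37 (SE 0.11, adjusted p = 0.0155), a call lost without shMEK5 replicate 1 (-0.29, adjusted p = 0.122). Its log2 fold change in shERK5 was 0.16 (95% interval -0.05 to 0.37, adjusted p = 0.167). Dusp5 was higher in shERK5 than in shMEK5 by 0.53 (SE 0.11, adjusted p = 0.00290), the only member called higher in that comparison, and this call held under every alternative. An annotated antisense transcript covers 22.1% of the Dusp5 exons, and whether the counting used strand is not stated, so reads of the antisense transcript may be included.

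Spry1 changed more than any other of the 10 genes in shERK5. Its level was 1.69, 2.31 and 2.52 CPM in the shERK5 libraries, 8.29 and 7.34 CPM in the shMEK5 libraries, and 8.80, 8.07 and 8.54 CPM in the shCTRL libraries. These values rest on 91, 123 and 112 reads in shERK5, 343 and 349 reads in shMEK5, and 458, 345 and 390 reads in shCTRL. The shERK5 libraries lay far below all others, and shMEK5 overlapped shCTRL. Spry1 fell in shERK5 by 1.59 (SE 0.10, adjusted p = 8.40e-07). Changes at so low a level are understated on the log2(CPM + 1) scale, and edgeR put this change of Spry1 at -1.97. In shMEK5 its log2 fold change was -0.10 (95% interval -0.36 to 0.15, adjusted p = 0.479), so that a small fall there was not detectable with these libraries. The difference between the knockdowns was -1.48 (SE 0.12, adjusted p = 7.86e-06) and was called under every alternative. A gene model of unresolved type on the opposite strand covers 24.4% of the Spry1 exons, with the same uncertainty about strand.

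Spry2, another Sprouty inhibitor, was at 65.0, 65.2 and 59.5 CPM in shERK5, at 75.0 and 71.2 CPM in shMEK5, and at 83.3, 76.9 and 75.3 CPM in shCTRL. The 3 groups did not overlap, in the order shERK5, shMEK5, shCTRL from low to high, although the highest shMEK5 library and the lowest shCTRL library lay close together. Spry2 fell in shERK5 by 0.31 (SE 0.06, adjusted p = 8.85e-04). In shMEK5 its log2 fold change was -0.10 (95% interval -0.24 to 0.04, adjusted p = 0.217). The difference between the knockdowns (-0.21, SE 0.06, adjusted p = 0.0255) was no longer called once shMEK5 replicate 1 was left out (-0.17, adjusted p = 0.173). The same held on leaving out shMEK5 replicate 2 (-0.24, adjusted p = 0.0548) and on leaving out shERK5 replicate 3 (-0.17, adjusted p = 0.0957).

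Spry4, the remaining Sprouty gene, did not pass the test in any comparison. It was at 7.22, 8.00 and 8.05 CPM in shERK5, at 7.59 and 7.85 CPM in shMEK5, and at 13.1, 8.37 and 6.94 CPM in shCTRL. The shCTRL libraries spread on both sides of the knockdown libraries, with the first far above the rest. The log2 fold changes were -0.22 in shERK5 (95% interval -0.63 to 0.20) and -0.22 in shMEK5 (95% interval -0.69 to 0.24). Without shCTRL replicate 1 they became 0.02 and 0.02.

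Spred1 and Spred2 encode proteins that bring the Ras inactivator neurofibromin to the membrane. Spred1 was at 219, 189 and 195 CPM in shERK5, at 273 and 239 CPM in shMEK5, and at 331, 296 and 296 CPM in shCTRL. As with Dusp4, the 3 groups were separated, with shERK5 lowest and shCTRL highest. Spred1 fell in shERK5 by 0.61 (SE 0.07, adjusted p = 4.51e-05). Its smaller fall in shMEK5 (-0.27, SE 0.08, adjusted p = 0.0203) was not called without shCTRL replicate 1 (-0.21, adjusted p = 0.0578) or shMEK5 replicate 2 (-0.17, adjusted p = 0.195). Spred1 was lower in shERK5 than in shMEK5 by a log2 difference of -0.35 (SE 0.08, adjusted p = 0.00656), which was not called without shMEK5 replicate 1 (-0.25, adjusted p = 0.0825).

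Spred2 varied little. It was at 10.6, 11.3 and 11.4 CPM in shERK5, at 12.9 and 12.1 CPM in shMEK5, and at 12.5, 12.4 and 12.3 CPM in shCTRL. The shERK5 libraries lay slightly below all others. The log2 fold change in shERK5 was -0.15 (SE 0.06, adjusted p = 0.0591), just short of the threshold, and it passed with RLE size factors (-0.15, adjusted p = 0.0466). In shMEK5 it was 0.01 (95% interval -0.15 to 0.16, adjusted p = 0.942).

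Of the ETS factor genes, Etv4 was at 76.4, 82.2 and 84.0 CPM in shERK5, at 80.9 and 83.6 CPM in shMEK5, and at 99.2, 105 and 98.6 CPM in shCTRL. Each knockdown library lay below every shCTRL library, and the knockdowns overlapped. Etv4 fell by 0.32 in shERK5 (SE 0.05, adjusted p = 3.47e-04) and by 0.29 in shMEK5 (SE 0.06, adjusted p = 0.00192). The log2 difference between the knockdowns was -0.03 (95% interval -0.15 to 0.10, adjusted p = 0.758).

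Etv5 was at 28.5, 34.7 and 31.6 CPM in shERK5, at 24.9 and 26.1 CPM in shMEK5, and at 42.2, 31.6 and 31.6 CPM in shCTRL. Here the shMEK5 libraries were the lowest, and shERK5 overlapped shCTRL, whose first library stood well above the other two. Etv5 fell in shMEK5 by 0.44 (SE 0.13, adjusted p = 0.0192), a call that did not hold without shMEK5 replicate 1 (-0.40, adjusted p = 0.104) or shMEK5 replicate 2 (-0.47, adjusted p = 0.0704). In shERK5 its log2 fold change was -0.14 (95% interval -0.40 to 0.12, adjusted p = 0.308). Without shCTRL replicate 1, Etv5 was still called in shMEK5 but with a smaller change (-0.30, limma adjusted p = 0.0206). In shERK5 its change was then -0.004. The difference between the knockdowns, 0.30 (95% interval 0.01 to 0.59, adjusted p = 0.0956), was not called. It passed when only these 2 groups were fitted (adjusted p = 0.0326), when shCTRL replicate 1 was dropped (0.30, adjusted p = 0.0151) and when shERK5 replicate 1 was dropped (0.37, adjusted p = 0.0447).

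**Figure D3:**
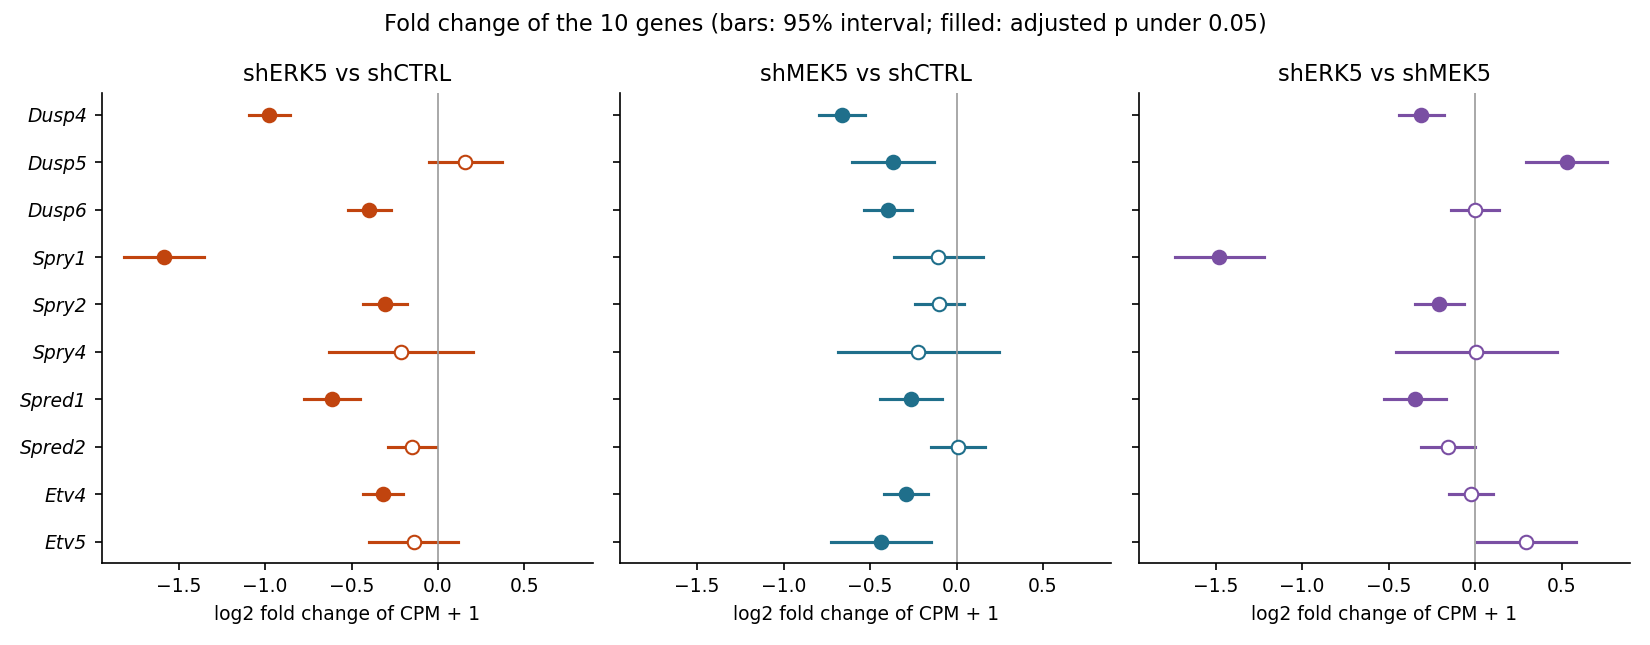
Log2 fold change of CPM + 1 for the 10 genes in shERK5 against shCTRL, shMEK5 against shCTRL and shERK5 against shMEK5; bars are 95% intervals from limma and filled points have an adjusted p under 0.05. Dusp4, Dusp6, Spred1 and Etv4 are called down in both knockdowns, Spry1 and Spry2 in shERK5, and Dusp5 and Etv5 in shMEK5.

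The comparison of shERK5 with shMEK5 tests where the knockdowns differed, which the pair of comparisons with the same shCTRL libraries cannot show. Spry1, Spred1, Dusp4 and Spry2 were lower in shERK5 and Dusp5 was higher. Thus 4 of the 10 were called down, against 17.4% of all tested genes, and 1 was called up, against 22%. This balance over all genes also depended on scaling, with 2561 up and 2020 down in the main fit but 2294 up and 2214 down with TMM factors. Library values did not overlap for 7 of the 10, a separation seen in 61% of tested genes. The count of 5 called genes dropped to 3 without shMEK5 replicate 1, when 2912 genes were called over the whole table, against 4581 with it.

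The promoters of Spry1, Spry2, Dusp6 and Spred1 are shown because these members fell in shERK5 and have an entry in the RefSeq promoter table, which 7 of the 10 genes matched. Here the 250 bases before the annotated start on GRCm38.p6, the patched form of the build mm10 named by the submitters, are written 5′ to 3′ on the gene's own strand. Capitals mark matches to a short GC box, GGGCGG on either strand, the binding motif of SP1. The intervals are chr3:37639697-37639946 on the + strand for Spry1, chr14:105896820-105897069 on the - strand for Spry2, chr10:99262981-99263230 on the + strand for Dusp6 and chr2:117120821-117121070 on the + strand for Spred1.
Spry1: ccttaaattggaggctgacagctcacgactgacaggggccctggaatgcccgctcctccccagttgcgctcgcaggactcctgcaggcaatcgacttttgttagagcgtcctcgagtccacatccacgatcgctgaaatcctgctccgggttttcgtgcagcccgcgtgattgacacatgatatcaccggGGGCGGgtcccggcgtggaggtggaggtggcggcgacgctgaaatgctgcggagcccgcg
Spry2: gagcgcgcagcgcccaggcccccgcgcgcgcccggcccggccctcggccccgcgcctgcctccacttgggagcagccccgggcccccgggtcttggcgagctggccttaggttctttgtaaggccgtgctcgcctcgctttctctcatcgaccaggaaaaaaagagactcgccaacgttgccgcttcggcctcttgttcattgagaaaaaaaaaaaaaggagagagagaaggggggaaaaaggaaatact
Dusp6: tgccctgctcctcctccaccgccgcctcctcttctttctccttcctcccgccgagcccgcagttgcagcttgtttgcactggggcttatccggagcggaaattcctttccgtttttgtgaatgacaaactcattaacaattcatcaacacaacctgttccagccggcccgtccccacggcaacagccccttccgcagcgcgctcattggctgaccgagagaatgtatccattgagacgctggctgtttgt
Spred1: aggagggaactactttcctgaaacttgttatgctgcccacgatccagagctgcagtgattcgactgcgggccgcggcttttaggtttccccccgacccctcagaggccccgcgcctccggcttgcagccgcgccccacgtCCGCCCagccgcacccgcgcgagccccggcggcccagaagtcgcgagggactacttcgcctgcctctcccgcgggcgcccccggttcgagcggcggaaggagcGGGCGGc

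These windows were searched on both strands for 5 motifs, none of which overlapped another in them. The GC box matched at 60 bases before the start in Spry1 and at 110 and 7 bases before it in Spred1, and it is present in 32.7% of all 32851 promoter windows of this length. The ETS core CCGGAA, held by 12% of all windows, the AP-1 motif TGANTCA, held by 6.75%, the cyclic AMP response element TGACGTCA, held by 1.55%, and the MEF2 motif, held by 0.508%, had no match in the 4 windows. MEF2 factors are known substrates of ERK5, but a motif this rare is likely to be missing from any 4 windows. Its absence is therefore uninformative, and sites farther from the start were not searched. The GC content was 62.4% for Spry1, 62.4% for Spry2, 56.4% for Dusp6 and 70.8% for Spred1, each above the median of 52.4% over all windows. Members not called in shERK5 were above it too: Dusp5 at 64%, Spred2 at 56%, and Etv5 at 71.2% and 62%. The GC box also matched in Dusp5, Spred2 and Etv5, while Spry2 and Dusp6 had no match. Neither trait was thus particular to the members that fell. A match is a string of letters and no evidence of binding.

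Among themselves, the members differed in profile. Likeness was taken as the root mean square difference, over the 8 libraries, of log2(CPM + 1) after subtracting each gene's shCTRL mean. This distance reflects the size of a change as well as its shape, and it includes scatter among the libraries of a group. Dusp6 and Etv4 were the nearest pair of members, at 0.10, and Dusp5 and Spry1 the most distant, at 1.08. Outside the set, 10049 tested genes with a mean of at least 5 CPM were compared. The nearest to Dusp6 were the insulin receptor gene Insr (0.04) and Igf2r (0.05), and the nearest to Dusp4 were Slc22a23 (0.06) and Chtf18 (0.07). Etv4 was nearest to Myo9b and Fancg, Spry2 to Arhgap19 and Oip5, Spred1 to Cnot6 and Alms1, Spred2 to Eif4enif1 and Itpripl1, and Etv5 to Zcchc24 and LTO1, at distances from 0.02 to 0.07. Dusp5 was nearest to Coq10a (0.05) and Dis3l (0.07), and Spry4 to Tmie (0.10) and Zfand4 (0.12). Zcchc24 and LTO1 shared with Etv5, and Tmie and Zfand4 with Spry4, a highest value in shCTRL replicate 1. Their nearness thus rests partly on scatter within shCTRL.

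Spry1 had the most distant neighbours of the 10 members. The nearest was Cd151, a tetraspanin gene (0.12), which averaged 78.9 ± 1.95 CPM in the 3 shERK5 libraries, 214 ± 12.2 CPM in the 2 shMEK5 libraries and 233 ± 9.55 CPM in the 3 shCTRL libraries (SD). Rgs10, a regulator of G protein signalling, came next (0.17), with averages of 3.91 ± 0.176 CPM in the shERK5 libraries, 11.2 ± 0.827 CPM in the shMEK5 libraries and 11.7 ± 0.164 CPM in the shCTRL libraries (SD over the same numbers). Both shared with Spry1 a low level in shERK5 and similar levels in the other 2 groups.

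Of 10 further MAP kinase phosphatase, Sprouty, Spred and PEA3 group genes, 9 were tested; in shERK5 4 fell and 2 rose (median log2 fold change 0.03), and in shMEK5 2 fell and 1 rose (median 0.02). In shERK5 these are 44.4% down and 22.2% up, against 31.3% and 32% of all tested genes, and in shMEK5 22.2% down and 11.1% up, against 25.6% and 23.1%. Etv1, the third PEA3 group factor, fell in shERK5 (-0.44, SE 0.06) and in shMEK5 (-0.39, SE 0.07), and Spred3 likewise (-0.49, SE 0.07 and -0.30, SE 0.08), its call in shMEK5 lost without shMEK5 replicate 2 (-0.30, adjusted p = 0.0514). Dusp10, a phosphatase of JNK and p38, rose in shERK5 (0.23, SE 0.06). Dusp8, another JNK and p38 phosphatase, rose in shERK5 (0.33, SE 0.10) and in shMEK5 (0.41, SE 0.11). Its call in shERK5 needed both shCTRL replicate 1 (0.24 without it, adjusted p = 0.0598) and shERK5 replicate 3 (0.23 without it, adjusted p = 0.0663). Its call in shMEK5 needed shMEK5 replicate 2 (0.34 without it, adjusted p = 0.105). Spry3 had no reads in any library. The count of 6 in shERK5 was 3 without shCTRL replicate 1, and the count of 3 in shMEK5 was 5 with DESeq2 and 1 without shMEK5 replicate 2.

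Of 20 other genes that report ERK1/2 output, 18 were tested; 7 fell and 7 rose in shERK5 (median 0.05), and 7 fell and 6 rose in shMEK5 (median 0.11). These are 38.9% in each direction in shERK5, near the 31.3% down and 32% up of all tested genes, and 38.9% down and 33.3% up in shMEK5, against 25.6% and 23.1%. Areg, the EGF receptor ligand amphiregulin, was at 46.1, 43.2 and 41.0 CPM in shERK5, at 71.0 and 75.6 CPM in shMEK5, and at 109, 113 and 108 CPM in shCTRL. Its 3 groups were separated in the same order as those of Dusp4, with log2 fold changes of -1.32 (SE 0.05) in shERK5 and -0.58 (SE 0.06) in shMEK5. Egr3, an early growth response transcription factor gene, fell in shERK5 (-0.99, SE 0.11) and in shMEK5 (-0.99, SE 0.12). Its level is low, with a mean of 0.810 ± 0.137 CPM in the shERK5 libraries, 0.806 ± 0.0804 CPM in the shMEK5 libraries and 2.61 ± 0.493 CPM in the shCTRL libraries (SD). It entered the test through the shCTRL libraries alone, which favours a fall, and edgeR put its changes at -1.68 and -1.67. Egr2, of the same family, fell in shERK5 (-0.79, SE 0.09) and in shMEK5 (-0.57, SE 0.10), and so did the early response gene Ier3 (-0.56, SE 0.06 in shERK5 and -0.29, SE 0.07 in shMEK5). Hbegf, another EGF receptor ligand gene, rose in shERK5 (0.17, SE 0.06) and in shMEK5 (0.45, SE 0.06), and Phlda1 rose as well (0.39, SE 0.07 in shERK5 and 0.53, SE 0.08 in shMEK5).

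Of 32 genes of the Ras-ERK1/2 cascade itself, 31 were tested. In shERK5 9 fell and 9 rose (median 0.05), and in shMEK5 6 fell and 4 rose (median -0.06), a count of 10 that was 6 without shMEK5 replicate 2. In shERK5 these are 29% in each direction, near the 31.3% down and 32% up of all tested genes, and in shMEK5 19.4% down and 12.9% up, against 25.6% and 23.1%. Mapk3, which encodes ERK1, was at 21.1, 24.03 and 22.3 CPM in shERK5, at 24.2 and 26.6 CPM in shMEK5, and at 43.9, 40.9 and 34.5 CPM in shCTRL. All knockdown libraries lay below all shCTRL libraries, and Mapk3 was at 56.5% of its shCTRL mean in shERK5 and at 63.9% in shMEK5 (log2 fold changes -0.79, SE 0.09 and -0.62, SE 0.10, adjusted p = 2.94e-05 and 5.44e-04).

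Upstream of ERK1/2, Rasa2, a GTPase-activating protein that turns Ras off, fell in shERK5 (-0.76, SE 0.09) and in shMEK5 (-0.73, SE 0.10). The receptor gene Met rose in shERK5 (0.33, SE 0.05) and in shMEK5 (0.24, SE 0.05), and so did the ETS factor gene Elk3 (0.31, SE 0.05 in shERK5 and 0.41, SE 0.06 in shMEK5). Rps6ka1, a kinase gene acting downstream of ERK1/2, fell in shMEK5 (-0.38, SE 0.05) and was higher in shERK5 than in shMEK5 by 0.35 (SE 0.05, adjusted p = 4.57e-04). Egfr rose in shMEK5 (0.89, SE 0.10), averaging 2.30 ± 0.141 CPM in the 2 shMEK5 libraries and 0.782 ± 0.0871 CPM in the 3 shCTRL libraries (SD). Egfr entered the test through the shMEK5 libraries alone, which favours a rise there, and edgeR put it at 1.58. Fgfr1, the listed receptor gene left out by the filter, was named after its values were seen. It was at 0.0186, 0 and 0.0900 CPM in shERK5, at 0.0725 and 0.105 CPM in shMEK5, and at 1.08, 0.959 and 0.832 CPM in shCTRL. Fgfr2, also on this list, stood far higher, averaging 171 CPM in shERK5, 185.5 CPM in shMEK5 and 190 CPM in shCTRL. Fgfr2 was not called in either comparison with shCTRL. Cic, the repressor known to hold Etv4 and Etv5 down and also named after its values were seen, had log2 fold changes of -0.50 in shERK5 (SE 0.13, adjusted p = 0.00929) and -0.27 in shMEK5 (SE 0.15, adjusted p = 0.159).

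**Figure D4:**
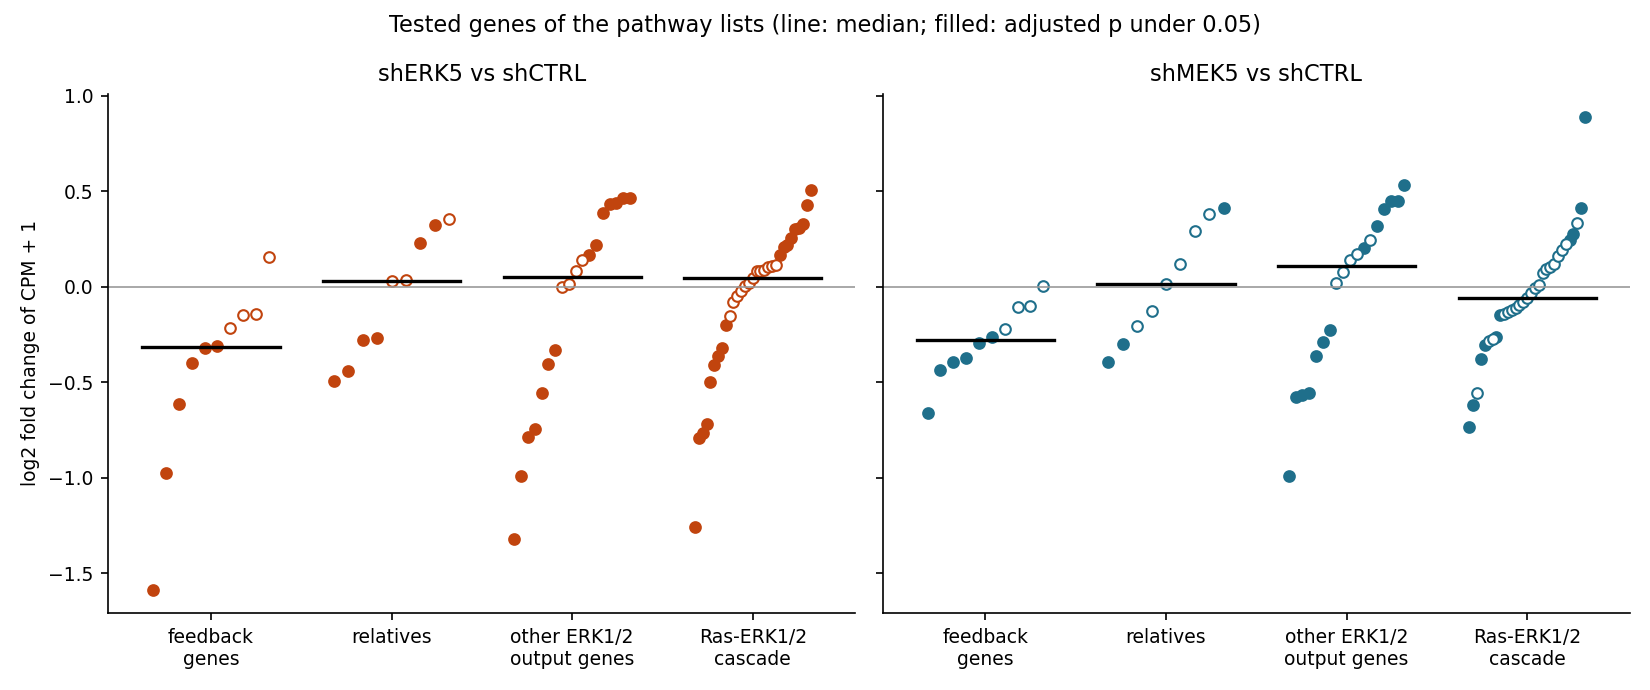
Log2 fold change of CPM + 1 for the tested genes of 4 lists, in shERK5 against shCTRL (left) and shMEK5 against shCTRL (right); each point is a gene, filled where the adjusted p is under 0.05, and lines are medians. The feedback genes have medians of -0.31 and -0.28, while the other 3 lists have medians between -0.06 and 0.11 and hold called genes on both sides of 0.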

How the data were processed

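The values deposited by the authors are CPM, and those of each library sum to 1000000 over 24454 genes. Libraries were made from total RNA with ribosomal depletion and a stranded kit, per the labels' protocols. The submitters' processing notes name STAR and mm10; no version, annotation, counting tool or strand setting is given in the sources used here. A single read was worth 0.0186 to 0.0242 CPM; dividing by it gave whole numbers, to within 0.01, for 100% of nonzero values, so reads were recovered. A value of 0 is compatible with up to 3 reads (0.0559 to 0.0725 CPM), counting error only. Symbols came from RefSeq GRCm38.p6 (24374 genes matched) and exon lengths from GENCODE.

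limma 3.58.1 with trend and robust moderation was fitted to log2(CPM + 1) of all 8 libraries, with a mean per group, for the 11623 genes that reached 1 CPM in 2 or more libraries (12831 were left out), with Benjamini-Hochberg adjustment; genes with an adjusted p under 0.05 were called. Fold changes on this scale understate those of low genes. The step was tested on simulated data. Alternatives, run in R 4.3.3, were TMM and RLE scaling, a pseudocount of 0.25, other filters, edgeR 4.0.16 and DESeq2 1.42.0 on the recovered reads, a fit of the 2 groups alone, a replicate block and leaving out each library. edgeR called 7350 genes in shERK5 and 5627 in shMEK5 against shCTRL, and 4452 in shERK5 against shMEK5. Within groups, chi-square per degree of freedom between libraries was 7.45 to 37.4, so none was a duplicate.

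The members and lists were chosen with earlier results of these data known. Named are all 10 members, the targets, and for each member the 2 genes of nearest profile. From each pathway list, up to 4 called genes with the smallest adjusted p per comparison with shCTRL are named. Fgfr1, Fgfr2 and Cic were added after their values were seen. Some genes of the cascade list are not reported here by name.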

Additional observations from a re-analysis of the deposited data

How the results depend on the processing

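Of the 17 called member results over the 3 comparisons, 12 were called under all 17 alternatives and 0 changed sign; those that lost or gained a call are given above with their values. Member counts were 6 to 7 in shERK5, 4 to 6 in shMEK5 and 3 to 6 in shERK5 against shMEK5, the 3 without shMEK5 replicate 1. Over leave-one-out fits, with 1 library missing, the count of all genes called ran from 2912 to 4827 in shERK5 against shMEK5; where a shMEK5 library was left out, the lone library was assumed to vary like the other groups. Apart from these 2 counts without shMEK5 replicate 1 (3 members and 2912 genes), counts over members and over all genes stayed within 1.5 times the reported ones. Among results that were not called, signs near 0 changed: Spry4 between the knockdowns was at -0.014 with TMM or RLE scaling and at -0.016 with edgeR or DESeq2; the cause was not tested. Leaving out single libraries gave Spry4 -0.394 to 0.021 in shERK5 against shCTRL, -0.40 to 0.015 in shMEK5 against shCTRL and -0.018 to 0.051 between the knockdowns, Spred2 -0.036 to 0.05 in shMEK5 against shCTRL, and between the knockdowns Dusp6 -0.071 to 0.068 and Etv4 -0.053 to 0.015, while Map2k5 ran from -0.01 to 0.026 in shERK5 against shCTRL. With a replicate block 6, 6 and 5 members were called in shERK5, in shMEK5 and between the knockdowns, as without it. Same-numbered libraries did not all deviate together (7 pairs, correlations -0.191 to 0.518, against -0.518 to 0.4 for 14 other pairs). The highest values, 0.465 and 0.518, were those of same-numbered shMEK5 and shERK5 libraries. With the numbers swapped these were -0.465 and -0.518, because the deviations of 2 libraries mirror each other. Whether these libraries shared a batch was not tested, and the numbers were not treated as pairs. Checks on other pathway genes and targets were added after seeing the data. With groups of 2 and 3 libraries, a change as small as that of Spred2 in shERK5 lies near the limit of what these data resolve.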
